A study of Saccharomyces cerevisiae with 25 samples.

Results

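Prolonged phosphate starvation was divided here into a later window, made of the libraries at 315, 330 and 360 min without phosphate, and an earlier window at 225, 240 and 255 min. These 6 libraries are members of a series of 25, and the question was which transcripts still changed once the cells had been starved for hours. All libraries came from a single culture of budding yeast, Saccharomyces cerevisiae, of the BY4741 background, labelled as delta-vip1 and as carrying pho84pr-YFP, a fluorescent reporter driven by the PHO84 promoter. The cells were grown with high phosphate (the 0 min library), washed, placed in medium lacking phosphate and sampled every 15 min for 6 h. The VIP1 deletion and the reporter are therefore shared by both windows and by the 0 min library, and no strain with intact VIP1 was analysed here. VIP1 encodes an inositol pyrophosphate kinase, an enzyme that adds phosphate to inositol polyphosphates.

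Each time has 1 library, so consecutive times stand in for replicates (n = 3 per window), and every p-value measures only the spread between neighbouring samples of a single culture. The 345 min library, with 413033 reads the shallowest of the series, was left out. The 6 libraries held between 1017295 reads (330 min) and 2009310 reads (225 min). Levels are in RPM, a gene's reads scaled to a library of 1000000 reads, changes are differences of mean log2 RPM, later minus earlier, and SE is the standard error of that difference. Of 5716 genes listed in at least 1 library of the series, 5159 were listed in all 6 libraries and tested with limma. VIP1 itself was listed in all 6 libraries of the strain labelled as lacking it, at 11 to 35 reads, which is 9.69 to 19.8 RPM (log2 change -0.55, SE 0.28, adjusted p = 0.21). The markers of a MATa haploid were all listed in the 6 libraries (6 of 6 genes, STE2 at 468 to 530 RPM). Of the 4 MATalpha genes examined, STE3 reached 45.2 RPM and SAG1 19.7 RPM in the same libraries, MF(ALPHA)1 was listed in 3 of them and MF(ALPHA)2 in 0. Of the genes missing from BY4741, URA3 was listed in 1 of the 6 libraries at 11 reads and HIS3, LEU2 and MET17 in 0.

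In yeast, phosphate shortage is read by the PHO pathway, in which the transcription factor Pho4 turns on phosphate transporters, secreted phosphatases and polyphosphate synthesis. Growth and ribosome production are controlled alongside by the TOR and protein kinase A pathways. When these are low, genes for ribosomal proteins and for ribosome assembly are expressed less, and stress genes bound by Msn2 and Msn4 are expressed more. The genes for ribosome assembly commonly carry the PAC element in their promoters, and the stress genes the stress response element.

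Late in starvation the transcripts for building ribosomes were higher again, while those of the ribosomal proteins were not. Of the stress and quiescence genes, 14 of 44 and 8 of 27 were called higher, and MOH1, SPI1 and XBP1 are in both counts. Some methionine and S-adenosylmethionine genes, histone genes and a group of cell wall genes were lower, and the summed share of the phosphate regulon stood nearly still. A gene was called when its adjusted p was under 0.05 and its log2 change at least 0.58 in size. By this rule 322 of 5159 genes (6.24%) were called, 251 of them higher (4.87%) and 71 lower (1.38%) in the later window. In 321 of the 322 the values of the windows did not overlap, which largely follows from the rule. Over all genes 19.3% were higher and 11.9% lower in every later library than in every earlier one. At the edge of the rule, the assembly factor gene NOP4 was called at a log2 change of 0.58. GND2, a phosphogluconate dehydrogenase gene, was not called at 0.575 with an adjusted p of 0.015. Centring each library on its median moved the median change of all genes from 0.06 to -0.04 and the split to 169 higher (3.28%) and 137 lower (2.66%), so the excess of higher genes depends on the scaling. The count also depends on single libraries. It was 167 without 225 min, 146 without 330 min and 144 without 360 min, against 366 without 240 min, 422 without 255 min and 288 without 315 min. In RNA from a whole culture, fewer cells of a kind and less RNA per cell cannot be told apart, and RPM gives shares of the RNA, not amounts.

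**Figure D1:**
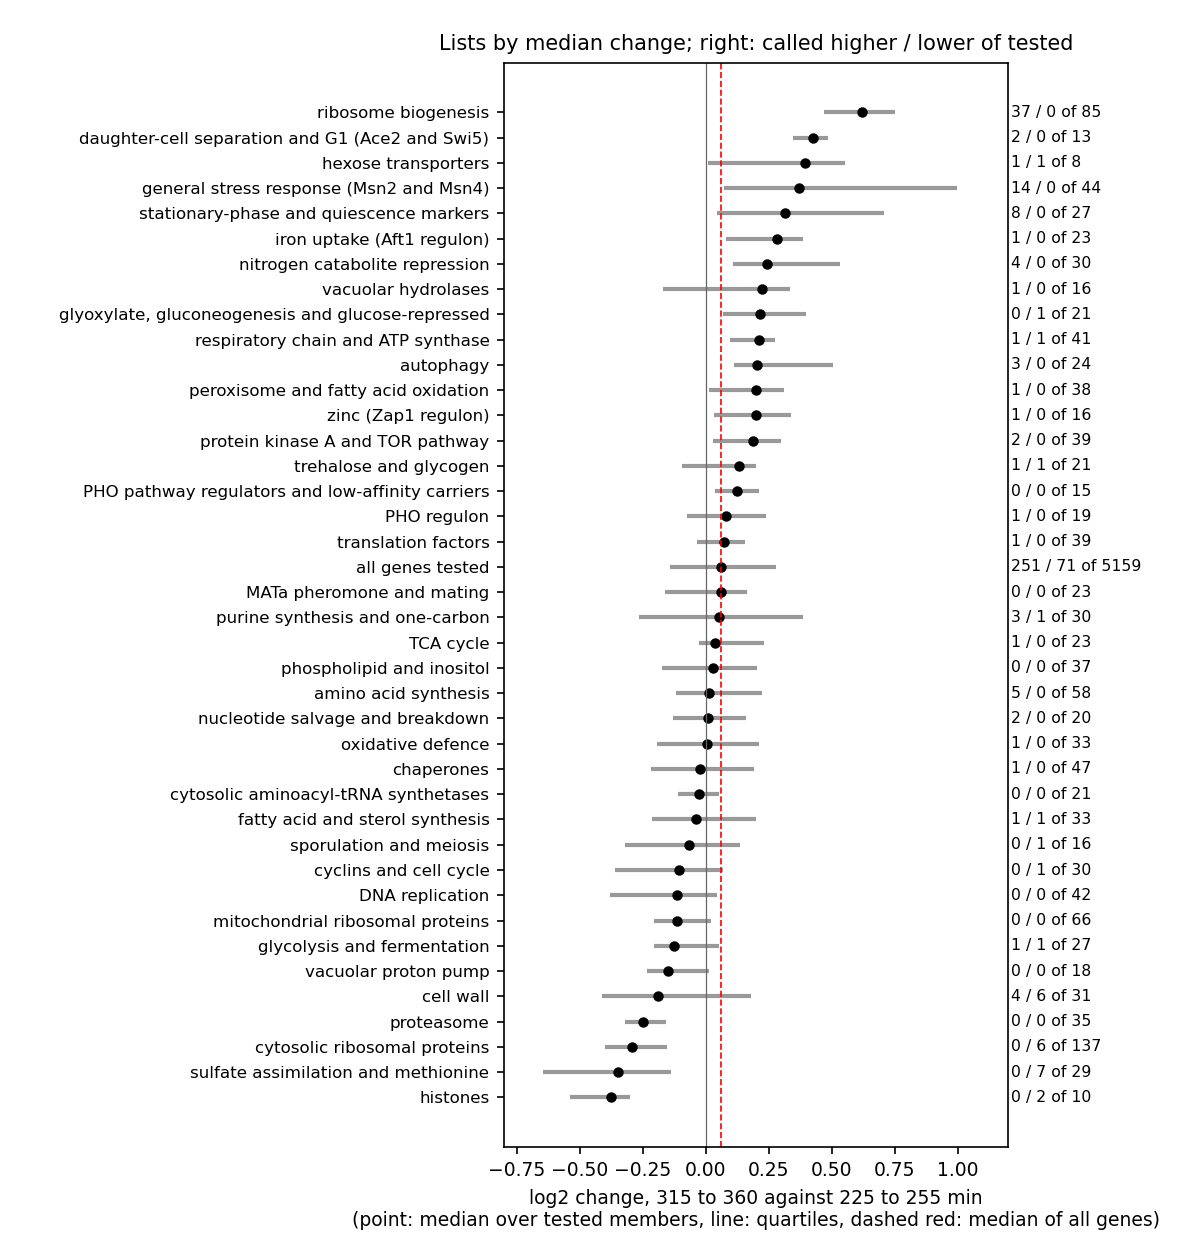
Median log2 change, 315 to 360 against 225 to 255 min (points), with quartiles (lines), for 39 gene lists and for all 5159 genes tested. The columns at the right count members called higher and lower. Ribosome biogenesis lies highest at 0.62 with 37 of 85 members called higher, and histones lowest at -0.38.

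Ribosome assembly genes, which had dropped between 180 and 195 min, had the highest median of the lists examined. Of 85 tested genes, 37 were called higher and 0 lower, beside 4.87% called higher over all genes, and 84 of the 85 changes lay above 0 with a median of 0.62. The groups of values did not overlap for 54 of them, beside 19.3% of all genes. Together they held 0.640%, 0.906% and 0.714% of the reads at 225, 240 and 255 min, and 1.2%, 1.06% and 1.02% at 315, 330 and 360 min. Each later library was above each earlier one, which in 3 against 3 libraries gives the smallest p the design allows (exact permutation test, two-sided, p = 0.1). The 0 min library held 2.28% and the 180 min library 1.49%, so the later shares stayed below both. Between 0 min and the mean of 180 to 210 min, times outside the comparison, all 84 members with a value had been lower, with a median log2 change of -1.29.

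Members of most roles in ribosome assembly were among those called. Of the genes for the small-subunit processome and 40S assembly, 14 of 31 were called higher (median 0.64), and of those for 60S assembly 18 of 36 (median 0.65). Among the listed genes of RNA polymerase I, which transcribes the ribosomal RNA, 3 of 6 were called, RPA12, RPA49 and RPA135. Each of them lost the call without 330 min (adjusted p = 0.077, 0.057 and 0.055). RPA14, a subunit gene outside these 6, was also called higher (log2 change 0.80), and it overlaps the called YDR157W. The core proteins of the small nucleolar RNPs had 0 of 7 called, with a median of 0.51 and 5 of 7 without overlap. NOP1, the methyltransferase among them, stood at 125, 159 and 144 RPM earlier and 211, 217 and 180 RPM later (log2 change 0.51, SE 0.13, adjusted p = 0.020), under the minimum change but called without 240 min or 360 min (log2 change 0.59 in both). NOP56 had 317, 419 and 303 RPM earlier and 455, 442 and 428 RPM later, again with every later value above every earlier one.

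DBP2, a DEAD-box RNA helicase gene, was at 72.7, 107 and 106 RPM in the earlier window and at 222, 214 and 177 RPM in the later one (log2 change 1.12, SE 0.16, adjusted p = 0.0011). Its lowest later value was well above its highest earlier one, and both lay under the 625 RPM of the 0 min library. HAS1, a helicase gene acting in both subunits, went from 30.9, 39.5 and 29.0 RPM to 93.4, 75.7 and 50 RPM (log2 change 1.11, SE 0.22, adjusted p = 0.0077). PWP2, a scaffold of the small-subunit processome, went from 24.4, 35.3 and 29.0 RPM to 75.8, 61.9 and 42 RPM (log2 change 0.99, SE 0.22, adjusted p = 0.014). For HAS1 and PWP2 the 315 min value was the highest of the 6 and the 360 min value the lowest of the later 3. BFR2, another processome gene, had 33.3, 55.0 and 36.9 RPM against 89.0, 73.7 and 70.0 RPM (log2 change 0.92, SE 0.19, adjusted p = 0.010). PUF6, an RNA-binding factor for the large subunit, had 47.3, 53.6 and 56.5 RPM against 116, 98.3 and 102 RPM. NSR1, the yeast nucleolin, had 98.5, 135 and 149 RPM against 217, 215 and 241 RPM (log2 change 0.83, SE 0.15, adjusted p = 0.0032). The values of BFR2, PUF6 and NSR1 did not overlap between the windows either. The calls of DBP2, BFR2, PUF6 and NSR1 held without any single library, that of HAS1 was lost without 330 min (adjusted p = 0.051), and that of PWP2 without 225, 315 or 330 min (adjusted p = 0.055, 0.053 and 0.069).

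The higher level was first seen at 300 min. In the libraries between the windows the list held 0.830% of reads at 285 min and 1.43% at 300 min, and 84 of 84 members listed at both times were higher at 300 min, with a median log2 difference of 0.82. Over all genes 54.8% were higher at 300 min and the median difference was 0.04. DBP2 was at 105 RPM at both 270 and 285 min and at 296 RPM at 300 min. RPA135, for the second-largest polymerase I subunit, was at 44.3 RPM at 285 min, 135 RPM at 300 min and 89.0, 60.9 and 67.3 RPM in the later window. The 300 min library was the highest of all these for both genes, and each time rests on 1 library.

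**Figure D2:**
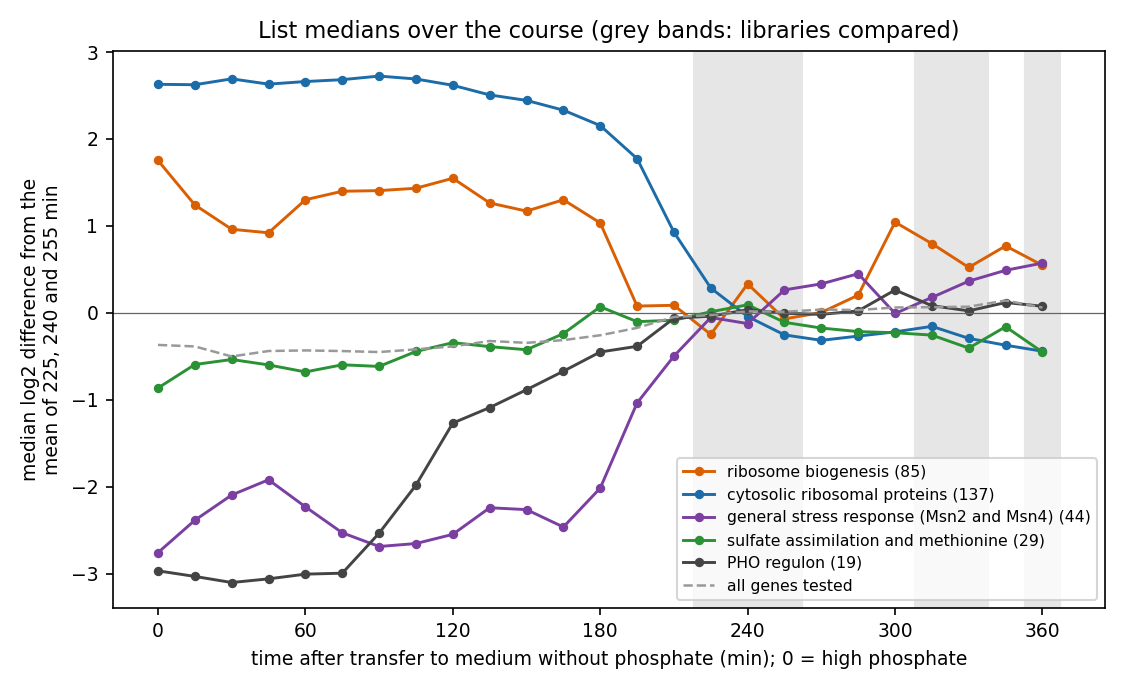
Median log2 level of gene lists over the 25 libraries, each gene relative to its own mean at 225 to 255 min, against time in minutes (0 min is with phosphate). Ribosome biogenesis is at 0.20 at 285 min and 1.04 at 300 min, while cytosolic ribosomal proteins lie at -0.27 and -0.22 at these times.

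The strength of the ribosome assembly result varied with the libraries used. Members called higher numbered 12 without 225 min, 16 without 315 min, 14 without 330 min and 18 without 360 min, but 61 without 240 min, where the earlier levels were highest. They numbered 28 with centred libraries and 12 without the variance trend. The median change stayed between 0.48 and 0.77 when single libraries were left out.

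The promoters of these genes were read because the PAC element is the sequence they are best known to share. The letters GATGAG, on either strand within 300 bases before the start codon, were found in 36 of the 37 called assembly genes (97.3%) and in 43 of the 48 that were not called (89.6%). Over all 5051 promoters read they occurred in 18.7%, and the difference between called and uncalled members was not tested. Of the 209 other genes called higher with a promoter read, 83 (39.7%) had it, and of the 66 called lower 7 (10.6%). Among the promoters of ribosomal protein genes it was found in 16 of 137 (11.7%). For 4 of the assembly genes described above, 80 bases follow, read 5′ to 3′ along the gene's strand from the RefSeq genome of build R64, with GATGAG or its reverse complement CTCATC in capitals.
DBP2 (chrXIV:413444-413523, plus strand): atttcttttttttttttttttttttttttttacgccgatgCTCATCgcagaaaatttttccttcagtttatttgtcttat
HAS1 (chrXIII:851692-851771, minus strand): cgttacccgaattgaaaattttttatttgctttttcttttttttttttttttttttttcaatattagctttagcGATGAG
PWP2 (chrIII:223333-223412, minus strand): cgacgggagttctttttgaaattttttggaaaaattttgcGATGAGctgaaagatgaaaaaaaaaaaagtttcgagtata
BFR2 (chrIV:1059447-1059526, plus strand): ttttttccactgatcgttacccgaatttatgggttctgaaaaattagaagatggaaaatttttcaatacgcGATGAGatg
Such a match is a description of the letters, and binding was not measured.

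Of 39 tested genes of the protein kinase A and TOR pathways 2 were called higher, TOD6 and IFH1, a share near the 4.87% over all genes. TOD6, whose protein binds the PAC element and represses assembly genes, had 13.9, 11.3 and 13.3 RPM earlier and 26.4, 31.5 and 25.3 RPM later (log2 change 1.11, SE 0.24, adjusted p = 0.012). IFH1, a coactivator of ribosomal protein genes, had 27.4, 31.7 and 39.3 RPM against 60.8, 51.1 and 46.0 RPM (log2 change 0.69, SE 0.19, adjusted p = 0.033). The values of both did not overlap, but the call of IFH1 was lost with centred libraries and without any one of 225, 240, 315, 330 or 360 min, and that of TOD6 without 330 min (adjusted p = 0.063). AAH1, the adenine deaminase gene, had 58.2, 74.1 and 61.2 RPM against 137, 110 and 115 RPM (log2 change 0.91, SE 0.15, adjusted p = 0.0022). It followed the same step, from 69.1 RPM at 285 min to 142 RPM at 300 min.

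**Figure D3:**
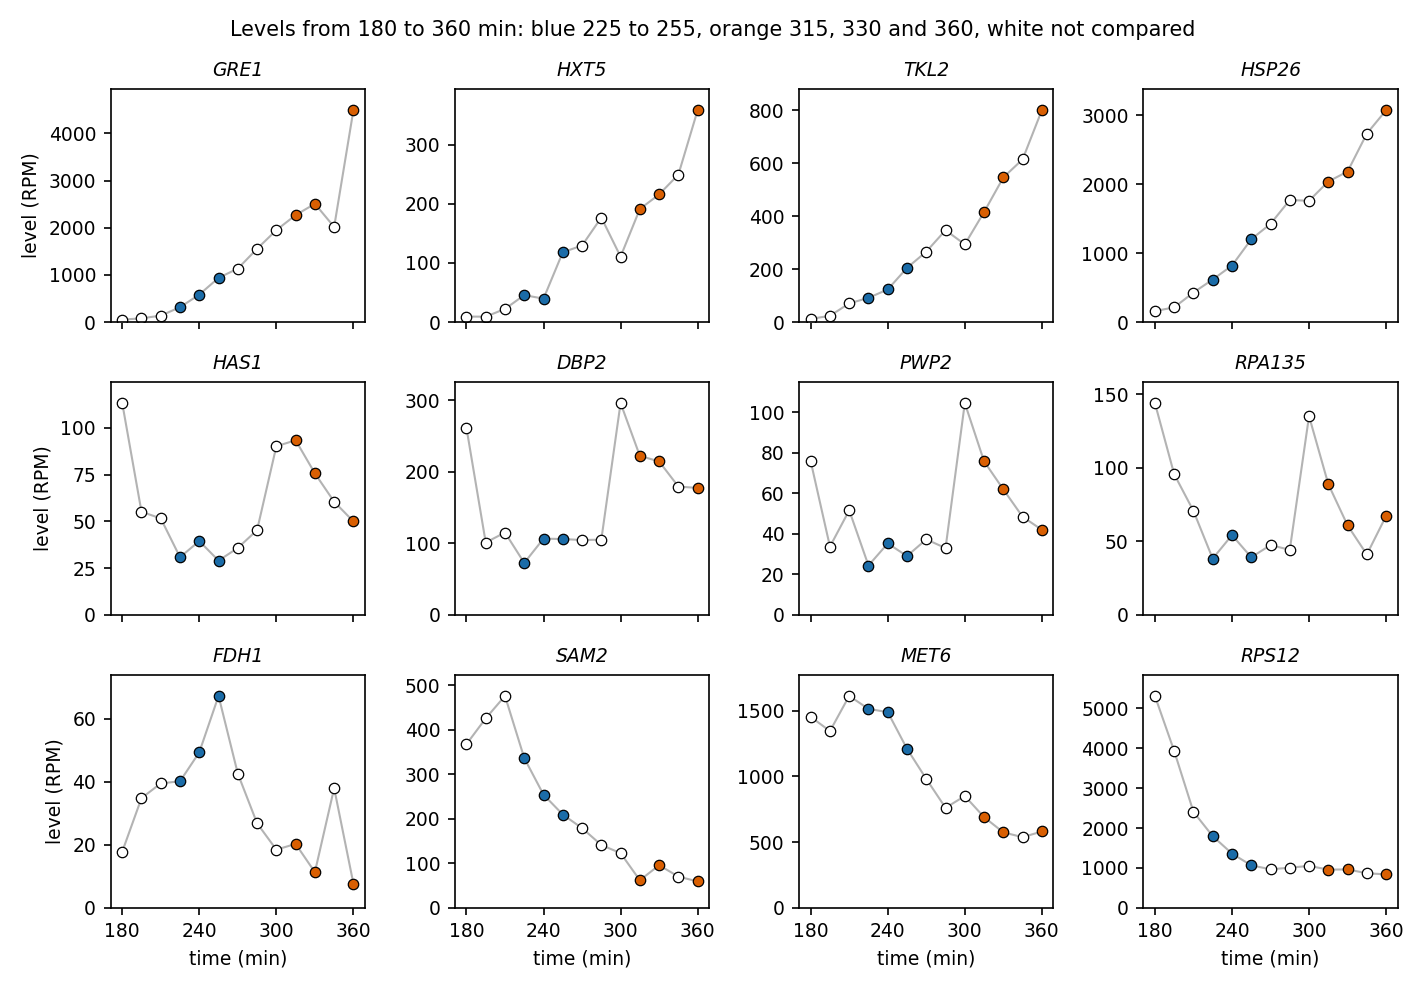
Level in RPM (linear axes from 0) of 12 genes against time from 180 to 360 min, 1 point per library, blue for 225 to 255 min, orange for 315, 330 and 360 min, white for libraries outside the comparison. HAS1, DBP2, PWP2 and RPA135 stand higher from 300 min on, GRE1 goes from 316 RPM at 225 min to 4491 RPM at 360 min, and MET6 from 1513 to 581 RPM.

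Ribosomal protein genes did not share in the return. Of 137 tested, 0 were called higher and 6 lower (RPS22B, RPL41B, RPS4A, RPS9A, RPS12 and RPS17A), beside 1.38% lower over all genes, with a median of -0.29 and 126 of 137 below 0. Their summed share of reads was 7.88%, 6.13% and 5.20% in the earlier libraries and 5.39%, 5.0% and 4.55% in the later ones, which overlapped (exact permutation test, two-sided, p = 0.2). RPS12 was at 1796, 1360 and 1064 RPM and then at 958, 962 and 838 RPM (log2 change -0.58, SE 0.14, adjusted p = 0.019). The earlier values fell from library to library and the later ones lay close together. RPS12 had been at 7088 RPM with phosphate, and its call was lost without 225 min (log2 change -0.39, adjusted p = 0.060), 330 min (0.070) or 360 min (0.093). The earlier window began at the end of a long fall of this list, which held 33.8% of reads with phosphate and 20.6% at 195 min, and then between 4.94% and 5.2% in the libraries of 270 to 300 min. The other 5 called genes have reads shared with a similar gene, and RPS22B also overlaps the small nucleolar RNA gene SNR44, so their own levels are uncertain. The count was 1 and the median -0.14 without 225 min, and the count was 1 without 330 min and 1 without 360 min, 27 without 255 min, 14 without 315 min and 20 with centred libraries. Between 285 and 300 min, when the assembly genes stepped up, the ribosomal protein genes had a median difference of 0.05, with 84 of 136 higher. The translation factor list (39 tested) had 1 called higher, GCD10, whose protein is a subunit of a tRNA methyltransferase. Cytosolic aminoacyl-tRNA synthetases (21 tested) had none, beside 4.87% called higher over all genes.

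Of 44 tested genes of the Msn2 and Msn4 stress response, 14 were called higher and 0 lower, beside 4.87% called higher over all genes. The median was 0.37 and 40 of the 44 lay above 0, as did 3001 of all 5159 genes. Several of these 40 lay slightly below 0 with centred libraries. The list's share of reads was higher in every later library than in every earlier one, with 6.0%, 5.89% and 6.87% earlier and 7.06%, 7.23% and 8.85% later (exact permutation test, two-sided, p = 0.1, the smallest possible). The course between the windows was not a steady climb, since the share reached 7.58% at 285 min and the next library, at 300 min, held 6.19%. Both the 315 and the 330 min values lay below that of 285 min. The count was 14 with centred libraries and 12 to 20 when single libraries were left out. All but 1 of 43 members had already been higher at 180 to 210 min than with phosphate, with a median log2 change of 1.43.

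GRE1, which encodes a hydrophilin induced by osmotic stress and drying, had the largest called rise of all genes. It stood at 316, 583 and 938 RPM earlier and at 2268, 2508 and 4491 RPM later (log2 change 2.40, SE 0.30, adjusted p = 4.8e-04). Its values rose along both windows and between them, from 57.9 RPM with phosphate. SIP18, a related hydrophilin gene, went from 706, 1284 and 1821 RPM to 3122, 3228 and 5996 RPM (log2 change 1.73, SE 0.27, adjusted p = 0.0020). HSP26, a small heat shock protein gene, went from 618, 821 and 1202 RPM to 2040, 2185 and 3075 RPM (log2 change 1.5, SE 0.19, adjusted p = 4.9e-04). In these genes 360 min was the highest of the 6 libraries and 225 min the lowest, so the spread within a window contains the climb itself.

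DDR2, a small stress-induced gene, was at 785, 813 and 1140 RPM and then at 1743, 1887 and 2880 RPM. CTT1, cytosolic catalase, was at 255, 177 and 375 RPM and then at 426, 651 and 884 RPM (log2 change 1.28, SE 0.24, adjusted p = 0.0059). TKL2, a transketolase gene, was at 91.6, 123 and 205 RPM and then at 416, 547 and 801 RPM (log2 change 2.10, SE 0.25, adjusted p = 4.4e-04). None of these overlapped, though CTT1 dipped to 275 RPM at 300 min. The calls of GRE1, SIP18 and CTT1 were lost under robust moderation of the variances (adjusted p = 0.061, 0.10 and 0.10), and that of CTT1 also without the variance trend (0.066). Those of HSP26, DDR2 and TKL2 held under every alternative tried. Some of the most abundant members did not pass. HSP12, for a membrane-protecting small protein, had a log2 change of 0.22 and HOR7 one of -0.09.

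Genes of stationary phase and quiescence gave 8 of 27 called higher and 0 lower, beside 4.87% called higher over all genes. MOH1, SPI1 and XBP1 are counted among the called stress genes too. The list's median level fell between 270 and 300 min, from 0.33 to 0.17 on the log2 scale relative to 225 to 255 min, and was 0.46 at 360 min. MOH1, needed for survival in stationary phase, had 45.3, 56.4 and 90.3 RPM earlier and 148, 182 and 202 RPM later (log2 change 1.52, SE 0.21, adjusted p = 8.2e-04). SPG4, of the same class, had 173, 178 and 305 RPM against 463, 506 and 835 RPM (log2 change 1.46, SE 0.22, adjusted p = 0.0014). Neither overlapped. XBP1, a repressor of cell cycle genes expressed in quiescence, was called at low levels, 15.9, 12.7 and 22.0 RPM against 32.6, 55.0 and 25.3 RPM, and lost the call without 225, 240 or 330 min (adjusted p = 0.065, 0.072 and 0.13). The list's count was 5 without 225 min and 5 without 330 min.

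Several of the largest rises are neighbours whose reads may not be separate. YMR175W-A starts 58 bases after SIP18 on the same strand and changed by 1.81, RRT1 starts 54 bases after MOH1 and changed by 1.54, and YBR116C, which has no RefSeq entry, had nearly the values of TKL2 in each library (90.1, 119 and 204 RPM, then 413, 543 and 789 RPM). Among 19 called stress or stationary-phase genes, 10 (52.6%) had the stress response element AGGGG on either strand within 300 bases of the start codon, beside 23.1% of all promoters and 22.4% of those called higher. GRE1, SIP18 and HSP26 had 0 copies. The stress list was drawn up as genes of Msn2 and Msn4, so a share above that of all promoters was built in. The difference was not tested. For 3 of the genes with the element 80 bases are printed, with AGGGG or its reverse complement CCCCT in capitals.
MOH1 (chrII:126552-126631, plus strand): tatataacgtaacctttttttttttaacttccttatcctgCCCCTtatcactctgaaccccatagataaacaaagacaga
CTT1 (chrVII:654454-654533, plus strand): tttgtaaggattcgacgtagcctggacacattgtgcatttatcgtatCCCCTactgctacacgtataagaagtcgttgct
DDR2 (chrXV:231891-231970, minus strand): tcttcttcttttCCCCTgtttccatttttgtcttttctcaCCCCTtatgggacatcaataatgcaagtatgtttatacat
DDR2 has 2 copies in this stretch and 3 within its 300 bases.

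Some genes that starvation had raised fell between the windows. TMA10, for a protein associated with the translation machinery, fell from 193, 115 and 139 RPM to 59.0, 47.2 and 58 RPM (log2 change -1.42, SE 0.18, adjusted p = 4.8e-04). RGI1, a respiratory growth gene, fell from 210, 106 and 160 RPM to 59.0, 76.7 and 53.3 RPM (log2 change -1.29, SE 0.21, adjusted p = 0.0021). HXK1, hexokinase 1, fell from 1895, 1384 and 1423 RPM to 833, 909 and 1038 RPM (log2 change -0.75, SE 0.12, adjusted p = 0.0021). None overlapped, and all 3 had been induced over the 0 min library (16.3, 20.3 and 128 RPM). Their values dropped between 285 and 300 min, TMA10 from 82.5 to 33.5 RPM, RGI1 from 126 to 49.9 RPM and HXK1 from 1212 to 624 RPM. In the same interval 42 of 44 stress genes and 20 of 21 genes for trehalose and glycogen were lower at 300 min, with median log2 differences of -0.34 and -0.60. TSL1, of the trehalose synthase complex, went from 265 to 86.1 RPM and was back at 197, 234 and 251 RPM in the later window, against 272, 149 and 300 RPM in the earlier one, whose range holds all 3 later values (log2 change -0.02, SE 0.20, adjusted p = 0.96). The storage carbohydrate list thus had only PIG2 called higher and PGM1 lower among 21, beside 4.87% higher and 1.38% lower over all genes.

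The methionine branch declined. Of 29 tested genes for sulfate assimilation, methionine and S-adenosylmethionine, 7 were called lower and 0 higher, beside 1.38% lower over all genes, with a median of -0.35. The list held 0.468%, 0.463% and 0.398% of reads earlier and 0.307%, 0.293% and 0.283% later, without overlap (exact permutation test, two-sided, p = 0.1, the smallest possible). MET6, the cobalamin-independent methionine synthase, fell from 1513, 1489 and 1210 RPM to 690, 574 and 581 RPM (log2 change -1.19, SE 0.11, adjusted p = 8.2e-05). SAM1, an S-adenosylmethionine synthetase, fell from 233, 200 and 165 RPM to 117, 118 and 84 RPM (log2 change -0.91, SE 0.16, adjusted p = 0.0032). Its paralog SAM2 fell from 337, 254 and 210 RPM to 62.0, 95.8 and 59.3 RPM (log2 change -1.89, SE 0.19, adjusted p = 1.1e-04), with some reads shared between similar genes. SAH1, which clears S-adenosylhomocysteine, changed by -0.64 and STR3, a cystathionine beta-lyase gene, by -0.88. SAH1 lost the call without 225 or 360 min (log2 change -0.51 and -0.58), and STR3, on 12 reads or more, without any one library other than 240 min. SHM2, the cytosolic serine hydroxymethyltransferase that feeds one-carbon units to this cycle, was the single gene called lower of 30 for purines and one-carbon units. Another 3 of those 30 were called higher, beside 1.38% called lower and 4.87% called higher over all genes. Both MET6 and SAM2 had been higher at 195 min (1344 and 426 RPM) than with phosphate (443 and 132 RPM), so MET6 came back towards its first level and SAM2 went below it. The list's count was 4 without 360 min, and the strain's background lacks MET17, the sulfhydrylase that joins sulfide to the carbon chain.

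The sulfate genes MET14, for adenylylsulfate kinase, and MET10, for a sulfite reductase subunit, were called with log2 changes of -0.88 and -0.66. MET14 was at 112, 143 and 80.1 RPM and then at 68.7, 45.2 and 66.0 RPM, and MET10 at 102, 104 and 82.4 RPM and then at 65.2, 61.9 and 55.3 RPM. Neither overlapped. MET14 lost the call without 240 or 330 min (adjusted p = 0.055 and 0.088) and MET10 without 225, 330 or 360 min (0.058, 0.055 and 0.063). The letters CACGTG, which the activator Cbf1 of this pathway and the phosphate factor Pho4 both recognise, stood in 3 of the 7 promoters (42.9%) beside 3.68% of all. MET14 and MET10 are 2 of these 3. As the list was drawn up for genes of this pathway, a share above that of all promoters was built in. The difference was not tested. A stretch of the MET14 and of the MET10 promoter is shown with CACGTG in capitals, read as above.
MET14 (chrXI:439574-439653, minus strand): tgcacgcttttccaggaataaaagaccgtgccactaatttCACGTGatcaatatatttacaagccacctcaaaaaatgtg
MET10 (chrVI:213041-213120, plus strand): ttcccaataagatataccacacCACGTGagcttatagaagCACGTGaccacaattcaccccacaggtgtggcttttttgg

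The phosphate regulon itself was nearly level as a whole, with members shifting both ways. Of 19 tested members 1 was called higher and 0 lower, beside 4.87% and 1.38% of all genes, with a median of 0.08. The list held 2.21% ± 0.07 of reads earlier and 2.22% ± 0.07 later (SD, n = 3 libraries each, exact permutation test, two-sided, p = 1). Without overlap, 7 members were higher and 3 lower, beside 19.3% and 11.9% of all genes. GIT1, a transporter of glycerophosphoinositol, was the called gene, with 33.3, 40.9 and 40 RPM earlier and 61.7, 65.9 and 90.0 RPM later (log2 change 0.91, SE 0.18, adjusted p = 0.0077). It did not overlap, but its adjusted p was 0.052 without 360 min. PHO84, the high-affinity phosphate transporter, had 1193, 1599 and 1374 RPM against 1611, 1701 and 1820 RPM (log2 change 0.31, SE 0.10, adjusted p = 0.070). PHO89, the sodium-coupled transporter, had 493, 636 and 630 RPM against 849, 779 and 824 RPM (log2 change 0.49, SE 0.11, adjusted p = 0.012), under the minimum change though without overlap. The secreted acid phosphatases gave log2 changes of 0.23 (PHO5), -0.38 (PHO11) and -0.31 (PHO12), and these similar genes share reads. SPL2, which acts on the low-affinity carriers, gave -0.29. PHO11, PHO12 and SPL2 were lower in every later library than in every earlier one (adjusted p = 0.031, 0.041 and 0.049), under the minimum change. The polyphosphate polymerase genes VTC1, VTC2, VTC3 and VTC4 lay between -0.11 and 0.01, and PHM6 at 0.00. PHO81, PHO8, PHM7, PHM8, PPN1, GDE1 and HOR2 lay between -0.11 and 0.32. Of 15 regulators and low-affinity carriers 0 were called, and KCS1, the other inositol pyrophosphate kinase gene, had the largest test statistic (log2 change 0.40, SE 0.11, adjusted p = 0.030).

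**Figure D4:**
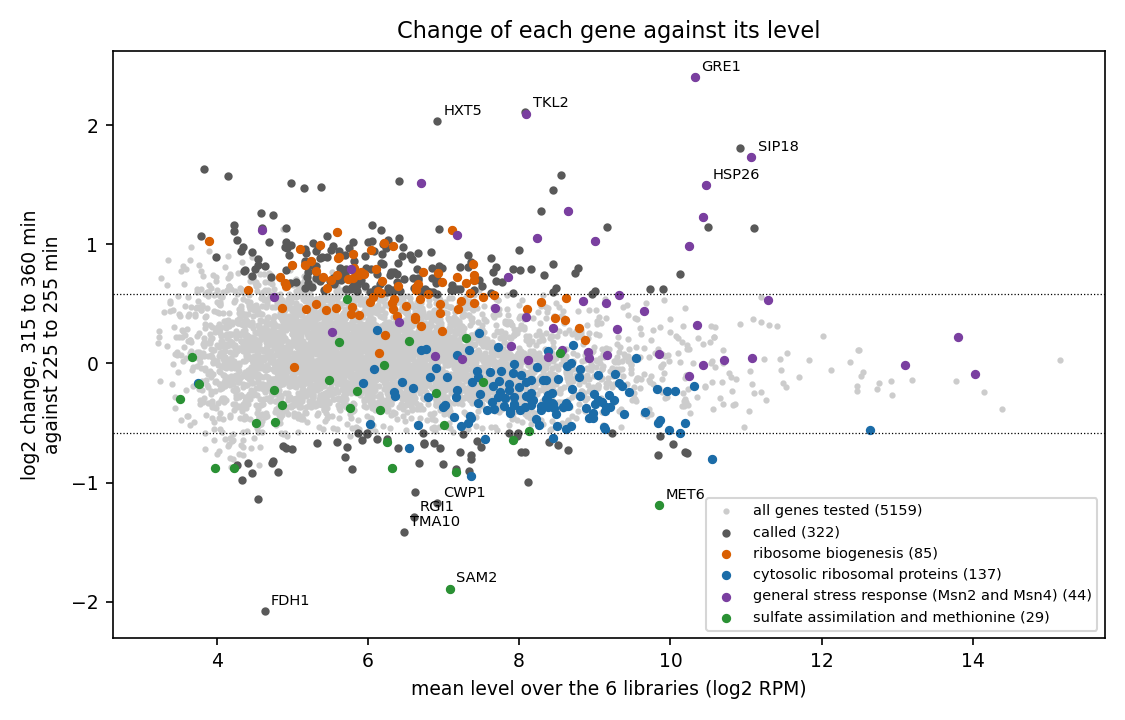
Log2 change, 315 to 360 against 225 to 255 min, against mean level over the 6 libraries (log2 RPM), 1 point per gene of 5159 tested, with dotted lines at the minimum change of 0.58. Ribosome biogenesis genes lie mostly above 0 and ribosomal protein genes mostly below it, and GRE1 at 2.40 and FDH1 at -2.08 are the extremes.

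Of 31 tested cell wall genes 4 were called higher and 6 lower, beside 4.87% and 1.38% of all genes. FKS1, the glucan synthase subunit of growing cells, fell from 219, 220 and 206 RPM to 131, 158 and 97.3 RPM (log2 change -0.77, SE 0.15, adjusted p = 0.0077). GSC2, its stress-induced paralog, rose from 52.8, 62.8 and 51.0 RPM to 87.2, 119 and 92.0 RPM (log2 change 0.83, SE 0.16, adjusted p = 0.0063). The pair thus moved in opposite directions, with no overlap in either. CWP1, a mannoprotein gene, fell from 224, 151 and 173 RPM to 81.1, 78.6 and 80.7 RPM (log2 change -1.17, SE 0.15, adjusted p = 4.8e-04). TIP1, another mannoprotein gene, rose from 191, 161 and 203 RPM to 331, 372 and 364 RPM (log2 change 0.95, SE 0.11, adjusted p = 4.8e-04). The later values of both lay close together. The remaining called genes were SPI1 and YGP1 (higher) and UTR2, SIM1, SCW10 and CHS2 (lower), and the lower count was 1 without 360 min, where FKS1 missed the minimum change narrowly (-0.58). CTS1, the chitinase that separates daughter cells, changed by 0.62, and DSE2, with the same role, by 0.74. They were the 2 called of 13 genes of daughter-cell separation, beside 4.87% called higher over all genes. All 13 lay above 0, as did 3001 of all 5159 genes, and the call of CTS1 was lost with centred libraries (log2 change 0.52).

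All 10 tested histone genes were lower in every later library than in every earlier one, where 11.9% of all genes were, with a median change of -0.38. Called were HTA2, from 1272, 1252 and 1068 RPM to 824, 718 and 581 RPM (log2 change -0.77, SE 0.12, adjusted p = 0.0019), and HHF2, from 1381, 1334 and 1277 RPM to 954, 839 and 724 RPM (log2 change -0.67, SE 0.10, adjusted p = 0.0018). Histone copies share reads, so single genes are less certain than the list. In the 345 min library, outside the test, HHF1 (1975 RPM) and HHT1 (911 RPM) lay above every earlier value. The whole list held 0.906% of reads there, below its lowest earlier share of 1.06%. The called count was 1 without 360 min and 4 without 315 min or with centred libraries. The 35 proteasome genes had 0 called either way at the minimum change, but 25 of 35 were lower in every later library than in every earlier one, beside 11.9% of all genes, and their median was -0.25. Their share of reads was 1.3%, 1.31% and 1.22% earlier and 1.12%, 1.08% and 1.04% later, without overlap (exact permutation test, two-sided, p = 0.1, the smallest possible). The 345 min library, outside the test, held 1.24%, above the 255 min share. RPN8, the member with the largest statistic, had a log2 change of -0.48 (SE 0.11, adjusted p = 0.013).

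Metabolic lists held few called members each. HXT5, a hexose transporter gene of slowly growing cells, had 45.6, 39.7 and 118 RPM earlier and 191, 216 and 358 RPM later (log2 change 2.04, SE 0.32, adjusted p = 0.0019), without overlap, though with an adjusted p of 0.068 under robust moderation. Of 58 genes of amino acid synthesis 5 were called higher and 0 lower, beside 4.87% called higher over all genes. Among them was CPA1, a gene of arginine synthesis, with 301, 361 and 532 RPM against 727, 877 and 982 RPM (log2 change 1.15, SE 0.17, adjusted p = 0.0013), again without overlap. Beside the same 4.87%, of 30 genes under nitrogen catabolite repression 4 were called higher, DAL5, PUT4, AGP1 and GAT1, and of 24 autophagy genes 3, ATG11, ATG19 and YLR312C, which became 0 with centred libraries. The call of DAL5 was lost without any single one of the 6 libraries. DIC1, the mitochondrial dicarboxylate carrier, fell from 425, 399 and 352 RPM to 212, 216 and 164 RPM (log2 change -1.0, SE 0.13, adjusted p = 4.8e-04). FDH1, formate dehydrogenase, had the largest called fall, from 40.1, 49.3 and 67.2 RPM to 20.3, 11.3 and 7.67 RPM (log2 change -2.08, SE 0.31, adjusted p = 0.0017), on as few as 11 reads and with reads shared with a similar gene. The 345 min library, outside the test, had it at 37.9 RPM, above all 3 later values.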

How the data were processed

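RNA from a single culture was sequenced as 1 library per time. The values the authors deposited are log2 of RPM per gene and library. Their antilogs sum to 1000000 in each library, with a blank where a gene had too few reads. The submitters' processing notes name Bowtie and the build R64. The counting program, the strand setting and the handling of reads common to similar genes were not given in the sources used here. Although the design text calls the values normalized to the first time point, the 0 min library has levels of its own. Reads were recovered by taking a library's lowest value as 10 reads, which made 96.4% of values of 50 reads or fewer whole within 0.01 (94.1% of all). The 25 libraries held 413033 to 4162690 reads. Genes with fractional reads in most libraries are called genes that share reads. A count test was not run, since values under 10 reads are missing.

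Genes listed in all 6 libraries were tested with limma 3.58.1 in R 4.3.3 on the deposited log2 values (window means, empirical Bayes with a variance trend, two-sided, Benjamini-Hochberg adjustment over 5159 genes). Calls required an adjusted p under 0.05 together with a log2 change of 0.58 or more in either direction. The procedure was tested on simulated data. Shares of reads were compared by exact permutation. Gene names were matched to RefSeq R64 for 5051 of the tested genes, and promoters of 300 bases before the start codon were read from that genome. The members and the 39 gene lists were chosen with earlier results of these data known. A rule picked the 15 largest called rises and falls, the PHO regulon, and up to 4 called members of each list. These were the called members with the largest statistic, or with none called the 1 member with the largest. Only part of this set is described in the text, and several of the largest rises and falls are not. Other genes with values (among them HAS1, PWP2, BFR2, NOP1, NOP56, the polymerase I genes, RPS12, FKS1, TSL1, MET10, MET14, STR3, XBP1, HSP12 and HOR7) were chosen after their values were seen. Tables and figures were made with Python 3.11.15, pandas 2.3.3, numpy 2.4.6 and matplotlib 3.10.9. The 19 alternatives cover scaling, filters, blanks, the 345 min library, each library left out, a straight line in time, variance moderation, weights, a replicate block and the minimum change.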

Additional observations from a re-analysis of the deposited data

How the results depend on the processing

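Leaving out single libraries gave 144 to 422 called genes, 107 to 310 of them higher and 32 to 116 lower. Without the variance trend 170 were called (128 higher, 42 lower). With a minimum log2 change of 1 there were 59 (51 and 8), and with no minimum 601 (402 and 199). Centring each library on its median gave 137 lower genes. The cause of these shifts was not tested, other than the minimum change itself. No gene called in the comparison changed sign under the 19 alternatives. A replicate block, which here is only the order of time within a window and pairs nothing in the design, gave 354 called genes (280 higher, 74 lower). The other alternatives gave counts within 1.5 times of those reported. The set picked by rule, only part of which is described in the text, held 87 called genes. Of these 24 kept the call under every alternative.

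Depth limits the low genes: 427 genes were listed in only some of the 6 libraries and were not tested, 2 of them in all 3 later and 0 earlier libraries and 15 the other way round. A gene at 10 reads has a large counting error. With 3 libraries a window, the exact test of a share cannot go below p = 0.1. A trend along a window widens its spread.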

Other observations

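Of the 251 genes called higher, 225 had values at 0 min and at 180 to 210 min. At 180 to 210 min, 132 of these had been lower than with phosphate and 93 higher. Of the 70 genes called lower with such values, 51 had been higher and 19 lower. Uncalled genes leaned the same way as the genes called lower, with 2902 of 4505 higher and 1603 lower. By a log2 change of at least 0.58, 99 of the 225 had been lower and 52 higher. Of the 4505 uncalled genes, 472 had been lower and 1036 higher by this size. The share that had earlier risen by this size was thus near that of uncalled genes, and the share that had dropped was larger. The remaining genes of the 225 had changed less. The lists for iron, zinc, vacuolar hydrolases, the TCA cycle and the peroxisome each had 1 called gene, which was higher: ISU1 of 23, ZPS1 of 16, PAI3 of 16, IDP2 of 23 and POT1 of 38. These shares lie near the 4.87% called higher over all genes. IDP2, the cytosolic isocitrate dehydrogenase gene, had 17.9, 20.5 and 22.8 RPM earlier and 41.4, 39.3 and 54.7 RPM later (log2 change 1.14, SE 0.21, adjusted p = 0.0047, n = 3 libraries per window, limma). Its values did not overlap. Mitochondrial ribosomal proteins (66 genes), DNA replication (42) and the mating genes (23) had 0 called. At an unadjusted p under 0.05, 1431 genes of all those tested passed.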
